A study of Mus musculus with 4 samples.

Results

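The protein components of the cytosolic ribosome were followed as one gene group in the eyes of light-exposed mice. Its members are the listed genes whose symbol is Rpl or Rps followed by a number and at most one letter, together with Rplp0, Rplp1, Rplp2 and Rpsa. Of 22558 listed genes 81 met this naming rule, and 80 of the 81 also reached a mean of at least 1 FPKM over the 4 samples, as 14194 genes did in all. FPKM is the number of sequenced fragments per unit of transcript length and of library, so levels of different genes can be compared per length. The member left out was Rpl10l, a paralog of Rpl10 known from testis, which was listed at 0 in every sample, and the lowest member inside the filter was Rpl39l with a mean of 2.41 FPKM. The 80 members comprise 77 core genes, 31 of the small and 46 of the large subunit, and 3 paralogs counted apart from the core, Rpl3l, Rpl39l and Rps27l.

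A ribosome holds 1 copy of nearly every one of these proteins, and cells keep their supply in proportion. Their mRNAs are short and abundant, and most begin with a terminal oligopyrimidine (TOP) tract, a run of C and T bases at the 5′ end through which the kinase mTOR and the RNA-binding protein Larp1 control translation and storage. In the retina, photoreceptors renew their outer segments daily and depend on high protein synthesis, while lens fibre cells lose their ribosomes as they mature.

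All 4 samples came from 6-week-old mice of 1 genotype, Abca4-/-Rdh8-/-, which lack the photoreceptor transporter Abca4 and the retinol dehydrogenase Rdh8 and clear all-trans-retinal slowly after light, so the unexposed sample carries both deletions too. The conditions were no light (the control) and, after the light exposure, intervals of 3 h, 24 h and 7 days, each described as eyes of 3 mice, with 1 deposited value per gene. The sources used here do not state the strength or length of the light or the hour of collection. The tissue label names the whole eye while the extraction text speaks of retinas, and lens crystallin transcripts were present in all samples.

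With 1 value per condition no difference below has a replicate check, and no test or p-value is given. The step for counting a gene as differing was a log2 ratio of FPKM + 1 of at least 1 in size, and 0.2 serves as a smaller, descriptive step. The 3 comparisons with the control share that sample, and both comparisons between light samples share the 24 h sample, so their values are set side by side only. Olfactory receptor genes above 0 in only 1 sample (14 to 20 per sample) were taken as 1 fragment each, which was not checked. Their median FPKM was scaled by coding length. By this reading the median core member of at least 50 FPKM rested on about 5507 fragments in the control and 11405 at 7 days. That gives a counting error of 1.35% down to 0.936%. At 10 FPKM the same reading gives 9.63% at 3 h down to 7.12% at 7 days. Both hold for the median coding length of 472.5 bases, and shorter genes have larger errors. These errors cover counting only, not the spread between animals. In eye tissue fewer cells of a type and less RNA per cell cannot be told apart. Y-linked transcripts (Ddx3y, Eif2s3y, Uty and Kdm5d) were at 1.38 to 6.80 FPKM at 7 days and at most 0.0137 FPKM in the other samples, so at 7 days time after light and the sex of the mice cannot be told apart.

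To show C and T runs near annotated starts in this group, windows of 30 bases around the longest run are printed. They are those of the 6 most abundant core members with such a run in a promoter entry. The run is in capitals. The sequences are from RefSeq promoter entries on GRCm38.p6, read 5′ to 3′ on the gene's strand, and lie at chr10:23787182-23787211 (minus strand), chr8:123102330-123102359 (plus), chr7:4792952-4792981 (plus), chrX:37085213-37085242 (minus), chr11:114668568-114668597 (plus) and chr11:98026904-98026933 (plus), in the order below.
Rps12: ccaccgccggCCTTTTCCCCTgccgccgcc
Rpl13: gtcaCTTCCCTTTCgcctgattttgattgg
Rpl28: gcctctcgtgTCTCTCTTTCCgtctccggc
Rpl39: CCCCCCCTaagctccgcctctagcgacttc
Rpl38: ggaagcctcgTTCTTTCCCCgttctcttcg
Rpl19: gggcttgggCTCTCCCCTTCgcagataatg
Only the runs of Rpl28 and Rpl38 span the annotated start. Those of Rpl13, Rpl39 and Rpl19 lie before it, that of Rpl39 at the upstream edge, and that of Rps12 lies after it. A run away from the start need not be the TOP tract. An entry was found for 59 of the 80 members, with 71 promoters in all. A run of at least 8 C or T on the sense strand between 20 bases before and 30 bases after the annotated start was in 34 of those 71 promoters (47.9%), against 19.0% of 32851 promoters of the same length. Its complement, a run of at least 8 A or G in the same window, was in 6 of 71 (8.45%), against 21.9% of all. Over the whole 300 bases and on either strand, CCGGAAGT was in 12 (16.9%, against 3.89% of all) and AAGATGGC in 7 (9.86%, against 2.75%). These matches describe letters near annotated starts and say nothing of binding.

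The core members were abundant, and their order of levels hardly differed between samples. The median core member was at 469 FPKM unexposed and 572, 560.02 and 551 FPKM after 3 h, 24 h and 7 days. Rpl41, which encodes the smallest ribosomal protein, was the highest, at 1652 FPKM unexposed and 1989, 2105 and 2016 FPKM after 3 h, 24 h and 7 days. Rplp1 of the stalk followed at 1424, 1759.97, 1848 and 1689.95 FPKM, and Rps29 at 1304, 1500.0, 1513 and 1485 FPKM, in the same sample order. In each of these 3 genes the control was the lowest sample. Across the 80 members the rank order of levels in the control and in each light sample gave a Spearman rho of 0.991, 0.993 and 0.994, a description over genes that share a library. The group summed to 37329 FPKM unexposed and to 45399, 45183 and 43862 FPKM after 3 h, 24 h and 7 days. As a share of all listed FPKM this was 5.95%, 6.67%, 6.84% and 6.53%.

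**Figure D1:**
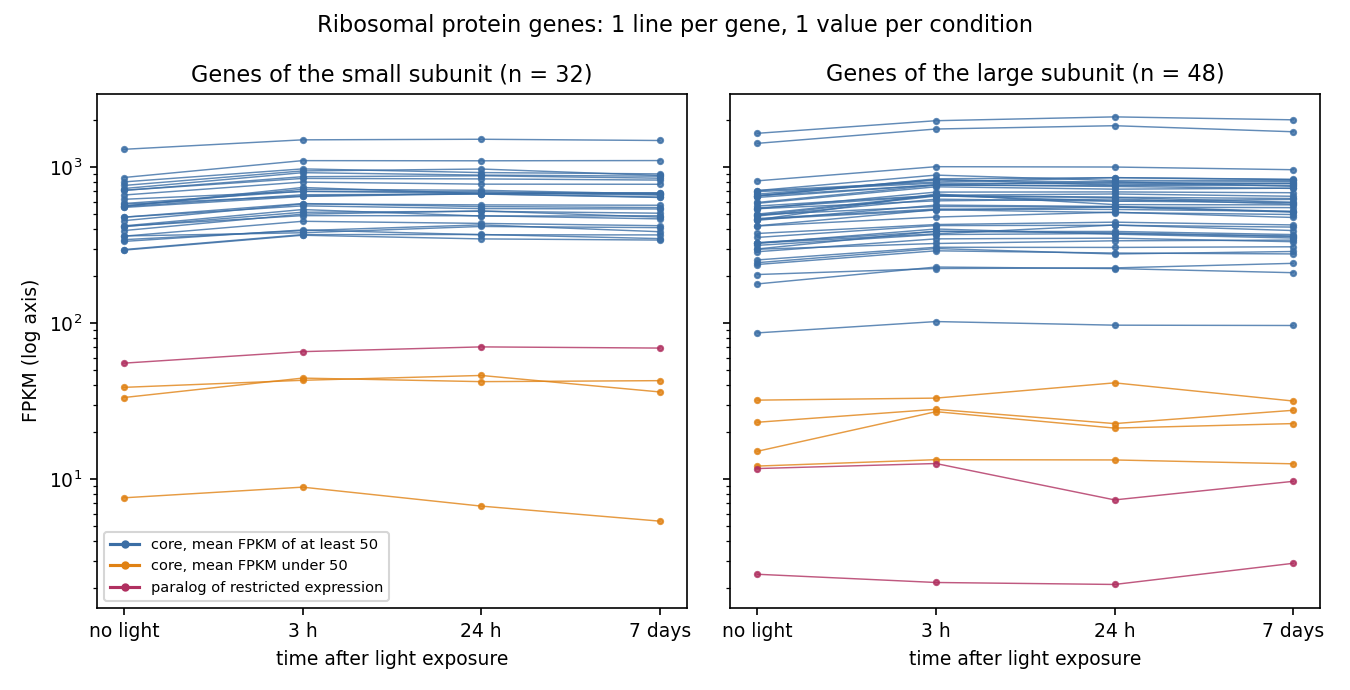
FPKM (log axis) of each of the 80 members in the control and at 3 h, 24 h and 7 days after light, small subunit on the left and large subunit on the right, 1 line per gene and 1 value per condition. The 70 core genes of at least 50 FPKM (blue) run nearly parallel and lie above their control value in every light sample. The 7 core genes under 50 FPKM (orange) and 3 paralogs (red) lie lower. Of the paralogs, Rps27l also lies above its control value in every light sample.

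At 3 h after light nearly the whole group was slightly higher than in the control. Of the 80 members 79, all but Rpl39l, were higher, with a median log2 difference of 0.27 (1.20-fold), whereas 54.1% of the 14194 genes were higher and their median was 0.02. Rpl39l, at 2.46 and 2.18 FPKM, was too low for its sign to be sure. At least 0.2 higher were 61 of the 80, against 14.8% of all genes, and none was 0.2 lower, against 11.4%. No member was past the log2 step of 1, which 0.55% of all genes passed upward and 0.24% downward. Among the 70 core members of at least 50 FPKM the difference ran from 0.07 for Rps16 to 0.55 for Rpl32. Rpl32, a large subunit protein, was at 460.2 FPKM unexposed and 674, 576 and 574 FPKM after 3 h, 24 h and 7 days. It stood apart at 3 h, since the next in that order, Rpl12, differed by 0.41. Rps16, of the small subunit, was at 363, 380.47, 417 and 410.2 FPKM and was nearest to its control value at 3 h. When the samples were rescaled to equal sums outside lens, muscle, erythroid, surface epithelium and small RNA genes, the group median at 3 h was 0.20, and Rps16 and Rpl26 were no longer above the control.

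At 24 h the group was about as far above the control. Of the 80 members 76 were higher (51.3% of all genes), all but Rpl3l, Rps27, Rpl39l and Rpl30, the median log2 difference was 0.26 (1.20-fold) and that of all genes 0.01. At least 0.2 higher were 61 of 80, against 13.9% of all genes, and 1 was at least 0.2 lower, Rpl3l, against 13.2%. None reached a step of 1, which 0.747% of all genes passed upward and 0.359% downward. The 69 core members of at least 50 FPKM reported by name lay between 0.14 for Rpl21 and 0.42 for Rps27a. Rps27a, which is made as a fusion with ubiquitin, was at 393, 501, 525 and 479 FPKM (unexposed, 3 h, 24 h, 7 days).

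At 7 days most of the difference from the control was still present. Of the 80 members 76 were higher (50.7% of all genes), all but Rps27, Rpl3l, Rps23 and Rpl26, with a median log2 difference of 0.22 (1.16-fold) against 0.00 for all genes. At least 0.2 higher were 49 of 80, against 9.6% of all genes, and 2 were 0.2 lower, Rps27 and Rpl3l, against 8.66%. None was past 1, which 0.409% of all genes passed upward and 0.19% downward. The same 69 core members ran from 0.10 for Rpl8 to 0.36 for Rplp2. Rpl8 was at 542, 609, 626 and 581 FPKM, and Rplp2 at 595, 768, 764 and 765 FPKM, so that the stalk gene kept its level in all 3 light samples.

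Over the 3 light samples 74 of the 80 members were higher than the control in each, against 26.6% of all genes, and 42 were at least 0.2 higher in each, against 3.26%. All 70 core members of at least 50 FPKM were among the 74. The highest of the 4 samples was 3 h for 45 members, 24 h for 29 and 7 days for 6, and the control for 0. The same count was not made over all genes, so these numbers have no share to be set against. The summed FPKM of all listed genes was also lowest in the control (626973) and highest at 3 h (680305). The order of 3 h and 24 h depended on scaling. As deposited, 32 of the 80 members were higher at 24 h than at 3 h. After rescaling to equal sums outside lens, muscle, erythroid, surface epithelium and small RNA genes, 45 were. The middle 50% of the members' log2 differences spanned 0.13 at 3 h, 0.12 at 24 h and 0.09 at 7 days, against 0.22, 0.22 and 0.18 for all genes and 0.12, 0.11 and 0.11 for the 76 mitochondrial ribosomal protein genes.

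**Figure D2:**
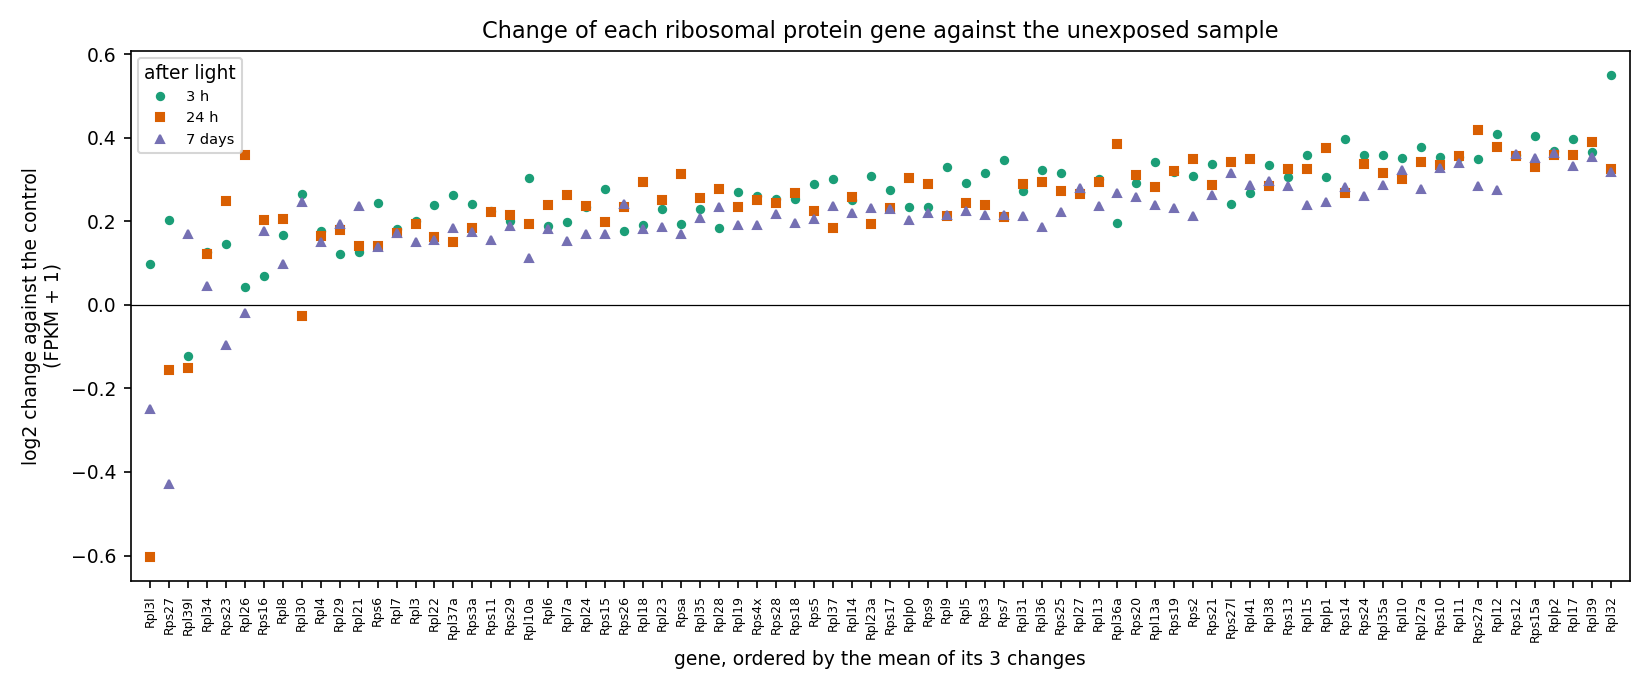
Log2 difference of FPKM + 1 from the control for 78 of the 80 members at 3 h (circles), 24 h (squares) and 7 days (triangles), ordered by the mean of the 3. Nearly all points lie between 0.1 and 0.4. The points below 0 belong to Rpl3l, Rps27, Rpl39l, Rps23, Rpl26 and Rpl30.

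Between the light samples the group differed little. From 3 h to 24 h 32 of the 80 members were higher (47.3% of all genes) and 48 lower (52.5%), and the median log2 difference was -0.01, as it was for all genes, and 0.02 under that rescaling. At least 0.2 higher was 1 member (11.0% of all genes), Rpl26, and at least 0.2 lower were 5 (14.3%), among them Rpl3l, Rps27, Rpl30 and Rpl32. From 24 h to 7 days 20 of 80 were higher (48.5% of all genes) and 60 lower (51.4%), with a median of -0.04 against -0.01 for all genes, and 3 members were at least 0.2 higher (11.6%), Rpl3l, Rpl39l and Rpl30, and 3 lower (9.8%), Rpl26, Rps23 and Rps27. Past the step of 1 there was no member in either comparison, while 0.514% of all genes were higher and 0.437% lower at 24 h than at 3 h, and 0.296% higher and 0.514% lower at 7 days than at 24 h. Among the core members of at least 50 FPKM, the extremes from 3 h to 24 h were Rpl32 at -0.23 and Rpl36a at 0.19. From 24 h to 7 days they were Rpsa at -0.15 and Rpl21 at 0.10.

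The subunits had similar medians. The 31 core genes of the small subunit had median log2 differences of 0.28, 0.25 and 0.21 at 3 h, 24 h and 7 days, and the 46 of the large subunit 0.27, 0.27 and 0.23. In the small subunit, Rps2, near the mRNA entry channel, was at 765 FPKM unexposed and 948, 975 and 887 FPKM after 3 h, 24 h and 7 days. The 7 members listed at the mRNA channel and head (Rps2, Rps3, Rps10, Rps15, Rps20, Rps29 and Rpsa) were all higher than the control at each time, with medians of 0.29, 0.31 and 0.21. So were 79, 76 and 76 of the 80 members, and 54.1%, 51.3% and 50.7% of all genes. Rps6 encodes the substrate of the S6 kinases, and phosphorylation of that protein is used as a readout of mTOR activity. The Rps6 mRNA, which is not that readout, was at 335, 397, 369 and 368 FPKM. Its log2 differences of 0.24, 0.14 and 0.14 were below the group median at each time. Rps12 was at 860.0, 1104, 1101 and 1105 FPKM, nearly the same in the 3 light samples.

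In the large subunit, the stalk recruits the elongation factors. All 4 stalk genes were higher than the control at each time, with medians of 0.34, 0.37 and 0.26. So were 79, 76 and 76 of the 80 members, and 54.1%, 51.3% and 50.7% of all genes. Rplp0, the stalk's base, was at 655 FPKM unexposed and 771, 809 and 755 FPKM after 3 h, 24 h and 7 days. Rpl12, which binds beside it, was at 492, 654, 640.2 and 596 FPKM, so its lowest value was again the control.

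The exit tunnel, through which the new protein leaves, is lined by Rpl4, Rpl17 and Rpl39 and rimmed by other members. Of 9 genes in that list 9, 9 and 8 were higher than the control at 3 h, 24 h and 7 days, with medians of 0.27, 0.26 and 0.21, and the exception was Rpl26. This was near the count for the whole group, 79, 76 and 76 of 80, against 54.1%, 51.3% and 50.7% of all genes. Rpl17 was at 501, 660.1, 643 and 631 FPKM, and Rpl4 at 496, 561, 556 and 551 FPKM. Rpl4, with log2 differences of 0.18, 0.16 and 0.15, was among the smaller differences and Rpl17, with 0.40, 0.36 and 0.33, among the larger.

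Rpl5 and Rpl11 form a particle with 5S ribosomal RNA, which outside the ribosome binds Mdm2 and so stabilises p53. Rpl5 was at 238 FPKM unexposed and 291, 282 and 278 FPKM after 3 h, 24 h and 7 days, and Rpl11 at 543, 693, 695 and 687 FPKM. Both were lowest in the control, with a median of 0.32, 0.30 and 0.28. Of the 10 members listed as mutated in Diamond-Blackfan anaemia, an inherited failure of red cell production, 10, 10 and 9 were higher than the control, with medians of 0.33, 0.32 and 0.24. These include Rps19, at 297, 370.1, 371 and 349 FPKM. In the whole group 79, 76 and 76 of 80 were higher, so the disease list did not stand apart from it. Over all genes the shares were 54.1%, 51.3% and 50.7%.

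The 4 X-linked members were higher than the control in all light samples, with medians of 0.31, 0.34 and 0.30. So were 74 of the 80 members and 26.6% of all genes. At 7 days Rps4x, at 0.19, was below the group median of 0.22, and Rpl10, Rpl36a and Rpl39, at 0.32, 0.27 and 0.35, were above it. Rps4x was at 586, 702, 698 and 669 FPKM, and Rpl10 at 587, 749.8, 724 and 735 FPKM. Rpl39 was at 655, 844, 859 and 837 FPKM, and Rpl36a at 326, 374, 426 and 393 FPKM. Xist was at 47.2, 53.8, 53.8 and 37.1 FPKM in the same samples.

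The 3 paralogs counted apart from the core differed among themselves. Rps27l, a paralog of Rps27 known as a p53 target, was at 55.5 FPKM unexposed and 65.8, 70.5 and 69.3 FPKM after 3 h, 24 h and 7 days, log2 differences of 0.24, 0.34 and 0.32. Rpl39l, known from testis, was at 2.46, 2.18, 2.11 and 2.89 FPKM, differences of -0.12, -0.15 and 0.17 at the lowest level of the group. At that level and with 153 coding bases its counting error is above that given for 10 FPKM, so these signs are uncertain. Rpl3l, the paralog of Rpl3 in skeletal muscle and heart, was at 11.7, 12.6, 7.36 and 9.69 FPKM, differences of 0.10, -0.60 and -0.25. Skeletal muscle transcripts, which an eye carries in its outer muscles, took 0.456%, 0.448%, 0.281% and 0.369% of all FPKM, and the 28 muscle genes past the filter had medians of -0.16, -0.69 and -0.22. The part of muscle tissue in the Rpl3l values was not tested.

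Some core genes were listed far below the rest, under 50 FPKM, although their proteins belong to every ribosome. The 6 described here are Rpl26, Rpl30, Rpl34, Rps15a, Rps23 and Rps27. Their differences from the control ran from 0.04 to 0.40 at 3 h, -0.16 to 0.36 at 24 h and -0.43 to 0.35 at 7 days. A comparison of coding sequences with GENCODE vM21 transcripts was therefore added after the values were seen. At no less than 90% identity over 80% of the coding length, 19 members had 23 near-identical copies among the other listed genes. For 5 of the 6 low genes, all but Rps15a, the copy carried most of the summed FPKM. Rps27 was at 7.60, 8.89, 6.72 and 5.38 FPKM, while Gm9846 was at 1154, 1461, 1351 and 1391 FPKM. Rpl34 was at 12.1, 13.3, 13.3 and 12.5 FPKM, and the processed pseudogene Rpl34-ps1 at 496, 589.5, 581 and 615 FPKM. Rpl34-ps1 was thus listed near the median core member and Gm9846 above it.

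Stretches of 60 coding bases, in capitals where the pair differs, show how alike the pairs are. They come from GENCODE vM21 transcripts on GRCm38, 5′ to 3′. Rps27 lies on chromosome 3 (minus strand) and Gm9846, named Rps27rt in GENCODE and annotated as protein-coding, on chromosome 9 (minus). Rpl34 lies on chromosome 3 (minus) and Rpl34-ps1 on chromosome 6 (plus).
Rps27, coding bases 1 to 60: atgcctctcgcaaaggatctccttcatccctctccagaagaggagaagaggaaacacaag
Gm9846, the same stretch: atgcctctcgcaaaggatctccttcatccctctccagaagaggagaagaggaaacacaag
Rpl34, coding bases 91 to 150: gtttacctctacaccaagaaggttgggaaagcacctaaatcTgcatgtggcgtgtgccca
Rpl34-ps1, the same stretch: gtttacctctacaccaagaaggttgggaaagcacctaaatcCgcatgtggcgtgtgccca
Rps27 and Gm9846 differed at 0 of 252 aligned coding bases, and Rpl34 and Rpl34-ps1 at 2 of 351. The sources used here do not state how fragments mapping to several places were divided, so the level of the gene and of its copy are uncertain one by one.

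Summed with their copies, these 5 genes lay inside or near the range of the other core members. Their log2 differences ran from 0.25 to 0.38 at 3 h, 0.05 to 0.27 at 24 h and 0.24 to 0.30 at 7 days, whereas their own values alone ran from 0.04 to 0.27, -0.16 to 0.36 and -0.43 to 0.25. Rps27 with Gm9846 gave 0.34, 0.23 and 0.27, where Rps27 alone gave 0.20, -0.16 and -0.43. Rpl26 with its copies gave 0.38, 0.27 and 0.24, and Rps23 with Gm15450 gave 0.33, 0.24 and 0.25. Rpl30 with Gm12191 gave 0.27, 0.05 and 0.25, the smallest sum at 24 h.

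**Figure D3:**
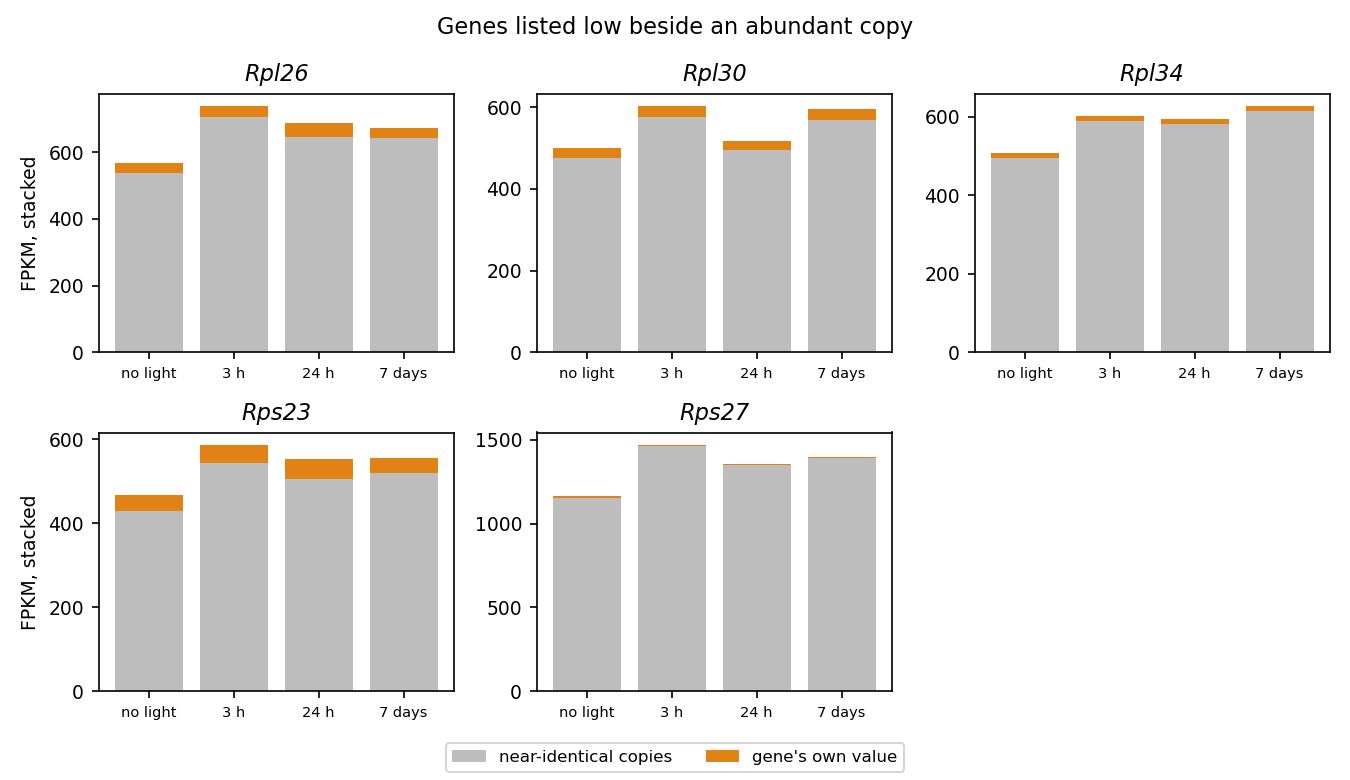
FPKM of 5 core genes (orange) stacked on that of their near-identical copies (grey) in the control and at 3 h, 24 h and 7 days, axis from 0. Averaged over the 4 samples the gene's own value is at most 7.60% of the sum, for Rps23, and each sum is lowest in the control.

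Coding length, which the choice of members did not use, and mean level, which it did, were set beside the differences. Across the 70 core members of at least 50 FPKM, longer coding sequences went with smaller differences (Pearson r of -0.25 at 3 h, -0.26 at 24 h and -0.45 at 7 days). More abundant members had slightly larger ones (0.16, 0.28 and 0.25 against log2 mean FPKM). These are weak descriptions over genes that share the same libraries, and length also enters FPKM. Since the group is short and abundant, 555 other protein-coding genes with at most 250 codons and a mean of at least 50 FPKM were taken as a measure of such genes at large. Their medians were 0.07, 0.10 and 0.10, below those of the ribosomal proteins at each time. Above the control were 397, 417 and 440 of them, against 54.1%, 51.3% and 50.7% of all genes.

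Other genes of the translation machinery differed in the same direction by less. The 6 ribosomal or ribosome-associated genes outside the naming rule were all higher than the control at each time, with medians of 0.20, 0.19 and 0.13. Among them Gnb2l1, which encodes the scaffold protein Rack1 on the small subunit, was at 426, 516, 481 and 471 FPKM (unexposed, 3 h, 24 h, 7 days). Of 21 other listed TOP mRNAs, Tpt1, at 0.21, 0.09, 0.16 and 0.07 FPKM, fell below the filter and was left out. The search for copies did not cover Tpt1. Among the remaining 20 genes, 20, 19 and 19 were higher, against 54.1%, 51.3% and 50.7% of all genes. Their medians were 0.17, 0.18 and 0.14. Eef1a1, the elongation factor that brings aminoacyl-tRNA and the most abundant of them, was at 2021, 2312, 2387 and 2339 FPKM. Eef1a2, its form in neurons and muscle, was at 109.8, 99.87, 93.9 and 99.98 FPKM, the single elongation factor of 7 below its control value at each time.

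The initiation factors (29 genes) had medians of 0.11, 0.14 and 0.07. Higher than the control were 26, 26 and 21, against 54.1%, 51.3% and 50.7% of all genes. Eif1, which guards start codon choice, was at 59.7, 81.7, 84.3 and 69.9 FPKM. The 76 mitochondrial ribosomal protein genes, the parallel set for the organelle, had medians of 0.10, 0.10 and 0.07, with 62, 63 and 57 higher. Those medians were below those of the cytosolic set at each time.

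Ribosome biogenesis factors were nearest to the control at 7 days. Their median over 42 genes was 0.06 at 3 h, 0.13 at 24 h and 0.00 at 7 days. Higher than the control were 34, 34 and 21, against 54.1%, 51.3% and 50.7% of all genes. Nop56, a core protein of the box C/D small nucleolar particles, was at 25.1, 31.3, 30.1 and 24.9 FPKM. Nucleolin (Ncl) was at 34.2, 39.3, 42.3 and 35.1 FPKM. Both were back near the control level at 7 days, when the ribosomal proteins were not.

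Of 17 listed regulators of mTOR and TOP mRNAs 11, 10 and 6 were higher than the control, against 54.1%, 51.3% and 50.7% of all genes. Their medians were 0.10, 0.05 and -0.08. Sesn2, a leucine sensor that restrains mTOR complex I, was at 5.52, 9.38, 6.67 and 5.93 FPKM. Ddit4, another inhibitor of the pathway, was at 44.6, 61.6, 36.8 and 35.4 FPKM. Both were highest at 3 h. Eif4ebp1, the translational repressor that mTOR phosphorylates, was at 9.46, 13.3, 12.6 and 11.5 FPKM. Mtor itself was at 13.9, 12.96, 12.004 and 11.3 FPKM and was highest in the control. These are mRNA levels, and phosphorylation and translation were not measured.

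**Figure D4:**
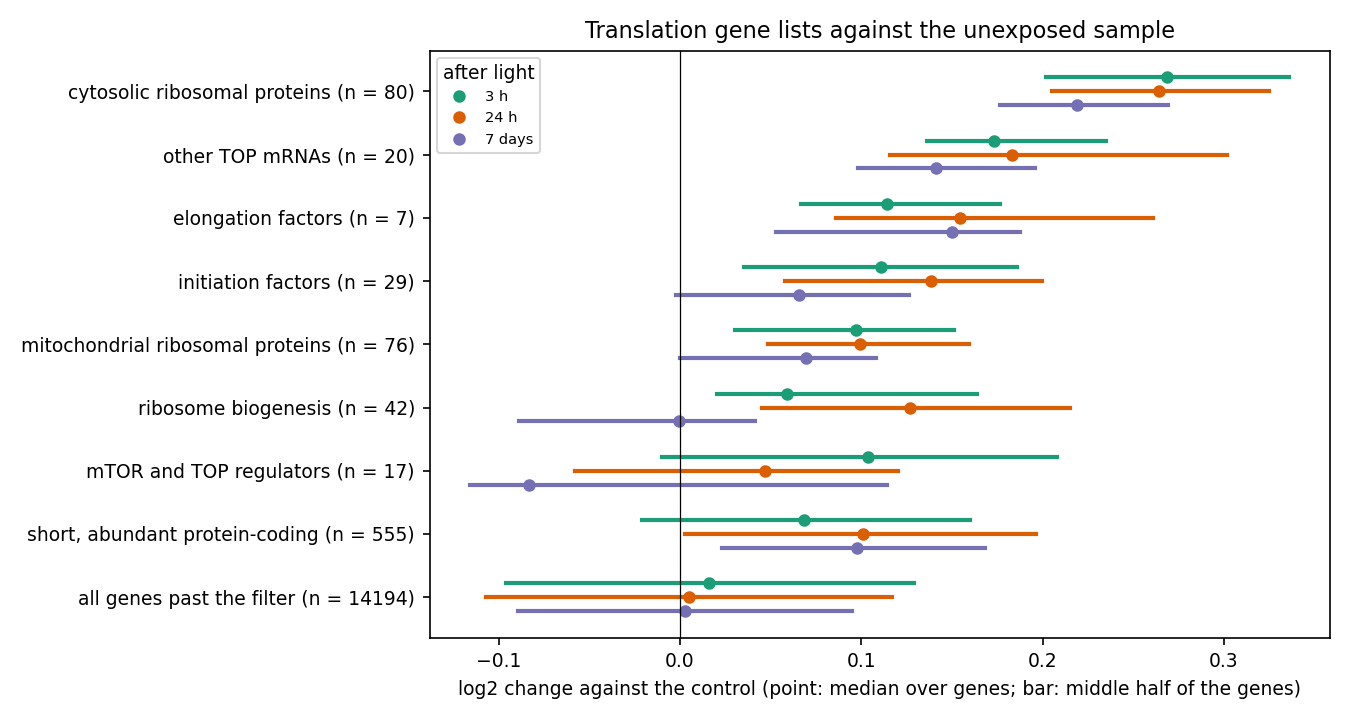
Median (point) and middle 50% (bar) of the log2 difference of FPKM + 1 from the control at 3 h, 24 h and 7 days for the 80 ribosomal protein genes and for other gene lists, with all 14194 genes at the bottom. The ribosomal protein medians of 0.27, 0.26 and 0.22 lie to the right of those of the other 8 lists plotted.

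Some members carry small nucleolar RNA genes in their introns, which guide the modification of ribosomal RNA. Such genes were listed 31 times, in 22 members. Listed at 0 in at least 1 sample were 16 of them. Of the 15 above 0 in every sample, 13, 11 and 8 exceeded the control after 3 h, 24 h and 7 days. Of all 14194 genes past the filter 54.1%, 51.3% and 50.7% did, so the count at 7 days was near that share. The 31 summed to 5532, 9742, 7753 and 6619.65 FPKM. FPKM of RNAs this short is unstable, and small RNA genes together took 12.7%, 18.1%, 13.7% and 15.6% of all FPKM.

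Other tissues of the eye differed between the samples alongside the group. The 19 rod genes had medians of -0.27, -0.69 and -0.53 and took 2.88%, 2.29%, 1.77% and 1.84% of all FPKM. The 13 fibroblast matrix genes had medians of -0.75, -0.73 and -0.39, and the 19 surface epithelium genes 0.29, 0.07 and 0.16. The 17 microglia genes had medians of 0.10, 0.15 and 0.96, and the 25 lens genes -0.09, 0.12 and 0.08, with lens taking 24.3%, 20.9%, 24.9% and 23.8% of all FPKM. The part of these tissues in the ribosomal protein differences was not tested. Taken over listed FPKM without small RNA and lens genes, the ribosomal protein share was 9.46%, 10.9%, 11.1% and 10.8%, again lowest in the control.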

How the data were processed

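Per the series' labels, RNA of eyes of 3 mice per condition was made into TruSeq libraries. The authors deposited 1 table of FPKM values, 1 column per condition, and none of its columns (0) belonged to no sample. The tools named are Cuffdiff 2.2.1, TopHat2 (version 2) and bcl2fastq 1.8.3, with the mm9 build, per the submitters' processing notes. The sources used here do not state the gene annotation, the library scaling, the handling of multiply mapped fragments, or whether a value is 1 pooled library or a mean.

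Differences are log2 of (FPKM + 1) ratios, which understate those of low genes, over 14194 genes with a mean of at least 1 FPKM. No test was run. Because no protein table was used, short genes were defined by GENCODE vM21 coding length (at most 250 codons) instead of by protein length, and 13480 of 13554 protein-coding genes past the filter had one. RefSeq tables gave gene classes for 22327 of 22558 symbols (98.98%). Their GRCm38 build is not that of the files and served for sequences, not for the values. Copies were found with BLAST 2.17.0. Scripts used Python 3.11.15, pandas 2.3.3, numpy 2.4.6 and matplotlib 3.10.9. The calling step, a log2 ratio of at least 1 in size, was tested on simulated counting noise with larger changes. No member passed that step, so the test does not bear on the smaller differences reported for the group.

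Genes named are the 8 members of highest and 4 of lowest mean FPKM, in each comparison with the control the 5 highest and 5 lowest differences, the stalk, paralog, X-linked and 5S members and Rps6 (33 members in all), and genes of a list within its account. Values of some genes chosen in this way were left out of the text. The members and the 22 lists were chosen with earlier results of these data known. Alternatives were another pseudocount, filters, scalings, denominators and gene sets.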

Additional observations from a re-analysis of the deposited data

Results flagged for a closer look

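Rps27 was listed on opposite sides of its control value at different times, with log2 differences of 0.20 at 3 h, -0.16 at 24 h and -0.43 at 7 days. The gene was listed at 7.60, 8.89, 6.72 and 5.38 FPKM in the control and at 3 h, 24 h and 7 days. The difference between the times was not tested, since there is 1 value per condition. The counting error of 7.12% to 9.63% at 10 FPKM was read at a coding length of 472.5 bases. Rps27 was below 10 FPKM in each sample and has 252 coding bases, so its error was larger. The signs of its differences are therefore uncertain. Summed with Gm9846, whose 252 aligned coding bases are identical, the log2 differences were 0.34, 0.23 and 0.27.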

How the results depend on the processing

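No paired analysis was possible because each condition has 1 value per gene and the labels give no replicate numbers. For the same reason no replicate could be left out. A pseudocount of 0.1, no filter, a filter of at least 50 FPKM, median-ratio rescaling and leaving out the 3 paralogs kept the direction of each group median against the control, and no share of FPKM moved by more than its tolerance of 1%. When samples were rescaled to the same sum outside the lens, muscle, erythroid, surface epithelium and small RNA genes, the 3 group medians against the control were 0.20, 0.22 and 0.18, and that from 3 h to 24 h was 0.019 (0.00 with median-ratio rescaling), where the reported value was -0.01. That rescaling lowered every difference from the control by 0.07, 0.04 and 0.04, and under it Rps16 and Rpl26 at 3 h were at 0.00 and -0.03. Shares of FPKM (unexposed, 3 h, 24 h, 7 days) were 5.81%, 6.50%, 6.67% and 6.36% without members that share a name with a pseudogene, 6.97%, 8.34%, 8.10% and 7.90% over protein-coding genes, and 6.57%, 7.38%, 7.51% and 7.21% with near-identical copies added, a choice made after seeing the data. Of 1415 values of single genes under all alternatives, 52 moved beyond counting error, and 7 of 849 against the control had another sign, 5 of them on adding copies. Without read counts or replicates, single members within a few percent of each other cannot be ordered.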
